A study of Mus musculus with 13 samples.

Results

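A set of 10 enzymes that remove superoxide or peroxides was followed in mouse brain RNA: the superoxide dismutases Sod1, Sod2 and Sod3, catalase (Cat), the glutathione peroxidases Gpx1 and Gpx4, and the peroxiredoxins Prdx1, Prdx3, Prdx5 and Prdx6. The rule lists them by name and uses no measured value, and these 10 genes are part of a table of 37636 gene IDs. Each symbol matched 1 row, and all 10 passed the filter on low values, a mean of at least 1 FPKM, a fragment count divided by transcript length and by the library's mapped fragments, over the 13 libraries. All libraries came from the brain of male Balb/c mice aged 6 to 8 weeks, with the brain region not named, and were read on a NovaSeq as pairs of 150 bases. The 6-OHG group (4 libraries) was exposed to 8000 m for 24 h and given 6-OHG, a compound known here only by that code, with dose, route, vehicle and timing not given. The Mod group (5 libraries) had the same exposure and is labelled as without 6-OHG. The Con group (4 libraries) was kept in the normal condition, also without 6-OHG. No 6-OHG group at the normal condition was among the samples, so the 6-OHG and Con groups differ by the exposure and by the compound together. Nothing says that libraries of a group came from separate animals, so p-values measure the spread between these libraries, which may be technical.

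Superoxide is formed when an electron escapes to oxygen, for example from the mitochondrial respiratory chain. Superoxide dismutases convert it to hydrogen peroxide, which catalase splits into water and oxygen and which glutathione peroxidases and peroxiredoxins reduce with electrons from glutathione or thioredoxin. The brain uses much oxygen and is rich in unsaturated lipids, and it leans on glutathione peroxidases and peroxiredoxins more than on catalase for removing peroxide.

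Gpx1 and Gpx4 are selenoproteins, and the feature that sets them apart from the other 8 members is a single in-frame TGA codon, read as selenocysteine at the active site. The stretches below are coding DNA of the principal transcripts (GENCODE M21, GRCm38), with that codon in capitals. It is codon 47 of 202 in Gpx1, on the plus strand of chromosome 9, and codon 73 of 198 in Gpx4, on the plus strand of chromosome 10.
Gpx1: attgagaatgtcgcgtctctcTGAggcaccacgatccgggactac
Gpx4: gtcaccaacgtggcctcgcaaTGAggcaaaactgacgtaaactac

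Promoter stretches are shown for Prdx1, Sod1 and Sod2, because 2 of them hold the core of the antioxidant response element and because Sod2 was the member that rose in both comparisons with Con. The windows searched were RefSeq promoters on GRCm38.p6, with 250 bases before and 50 after each start, and 8 of the 10 members were in that table with 11 windows. Each stretch below covers positions -150 to -48 from the start. Capitals mark the antioxidant response element core, TGACNNNGC, and the GC box, GGGCGG, on either strand. The Prdx1 stretch is chr4:116685449-116685551, the Sod1 stretch chr16:90220612-90220714 and the Sod2 stretch chr17:13007689-13007791, all on the plus strand.
Prdx1: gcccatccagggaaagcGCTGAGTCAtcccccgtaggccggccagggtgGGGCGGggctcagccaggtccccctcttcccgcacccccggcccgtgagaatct
Sod1: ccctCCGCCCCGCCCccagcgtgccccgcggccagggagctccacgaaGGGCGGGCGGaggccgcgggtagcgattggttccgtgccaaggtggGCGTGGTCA
Sod2: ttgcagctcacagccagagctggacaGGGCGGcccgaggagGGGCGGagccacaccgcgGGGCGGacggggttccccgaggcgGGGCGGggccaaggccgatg

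The TGACNNNGC core was present in Prdx1 and Sod1, in 2 of the 11 windows of members, and in 12.4% of all 32851 promoter windows. The GC box was present in 10 of the 11 windows of members, with at least 1 in each of the 8 genes, and in 35.7% of all windows. In Sod1 the GC boxes overlap each other in pairs, so that 4 matches fill the first 2 capital runs. The CCAAT box was found in 6 of the 11 windows, from 4 members (37.4% of all windows), and ACGTG, the core of the hypoxia response element, in 1 of the 11, that of Gpx1 (19.6% of all windows). A match is a run of letters and was not tested as a binding site.

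The members spanned a wide range of levels per transcript length. Gpx4 was the highest in each group, with a mean of 71.1 FPKM in 6-OHG libraries, 87.0 FPKM in Mod libraries and 75.7 FPKM in Con libraries, and 97.5% of the tested genes had a lower mean. Prdx5 came next in all 3 groups, and the libraries of Gpx4 and Prdx5 did not overlap within any group. Prdx1, Sod1, Gpx1, Prdx3 and Prdx6 followed, and in the Con group their neighbours in the order overlapped from Prdx1 down to Prdx6. Sod2 and Cat overlapped in the Con libraries, with means of 17.4 and 17.0 FPKM. In the 6-OHG libraries Sod2 instead stood beside Prdx6, at 20.9 and 20.6 FPKM with overlap, and clear of Cat at 12.8 FPKM. Sod3, the extracellular dismutase, was lowest at 1.92, 2.45 and 2.86 FPKM in the 6-OHG, Mod and Con groups, and its libraries lay below those of every other member.

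**Figure D1:**
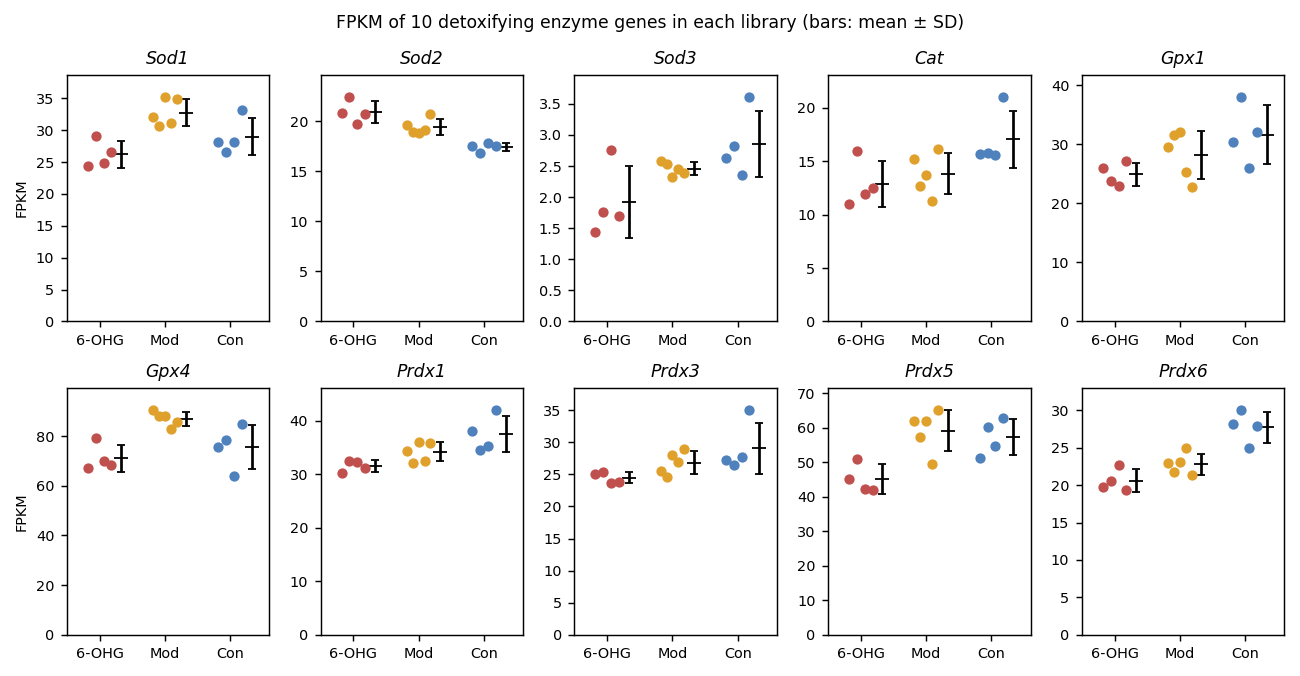
FPKM (y axis, from 0, scaled per gene) of the 10 enzymes in each 6-OHG, Mod and Con library (points), with the group mean and SD as black bars. Prdx6 is lower in every 6-OHG and Mod library than in the Con libraries and Sod2 higher, and Cat and Prdx3 each have 1 Con library, at 21.0 and 35.0 FPKM, above the other 12.

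The data of the whole series frame these values as follows. Column sums ran between 268208 and 312908 FPKM, and genes encoded in mitochondria held 20.6% to 28.7% of the sum. Neuronal markers matched the labelled tissue, with a summed level of 5 of them of 533 to 737 FPKM in 6-OHG, 558 to 657 FPKM in Mod and 482 to 673 FPKM in Con libraries. Liver markers were also found, at a sum of 34.8 to 49.6 FPKM in the Con libraries and 32.2 FPKM in Mod 3, with at most 1.17 FPKM in any other library. Differences below are limma differences of mean log2(FPKM + 1), fitted over 13905 genes and called at an adjusted p under 0.05 over all of them. This scale understates changes of low genes. Rescaling the libraries to equal sums moved the share of calls that were higher to 40.6% in Mod against Con, where it was 58.7% as deposited, and to 77.7% in 6-OHG against Mod, where it was 45.5%. In 6-OHG against Mod it was also 73.1% with equal sums over genes not encoded in mitochondria and 57.5% with quantile normalization. In 6-OHG against Con the share was 53.2% as deposited and 64.2% with those equal sums without mitochondrial genes. In bulk RNA, fewer cells of a type and less RNA per cell cannot be told apart. The 3 comparisons share libraries in pairs, so their results are set side by side and not counted as separate evidence. Con 4 and 6-OHG 2 were the libraries least like their groups in earlier results of these data, and each held the highest value of its group for 7 of the 10 members.

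After 24 h at 8000 m, the mitochondrial dismutase Sod2 rose by 11.7% and the glutathione-dependent peroxiredoxin Prdx6 fell by 17.7% in group mean against Con. The other 8 members were not called. The calls made up 20.0% of the members, against 23.8% of all tested genes, so the share called was near the background. By direction, 1 member was called higher, against 14.0% of all tested genes, and 1 lower, against 9.81%. The Mod and Con libraries did not overlap for 2 members, Sod2 and Prdx6, and for 22.4% of all tested genes. The median difference was -0.12 over the 10 members and 0.01 over all tested genes.

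In the 6-OHG group, the cytosolic dismutase Sod1, the lipid hydroperoxidase Gpx4 and the peroxiredoxin Prdx5 were lower than in Mod. Gpx4 fell by 18.3%, Sod1 fell by 20.0% and Prdx5 fell by 23.7% in group mean. These 3 calls, all lower, compare with 15.3% of tested genes called, 6.98% higher and 8.35% lower. The 6-OHG and Mod libraries did not overlap for 2 members, Sod1 and Gpx4, and for 15.9% of all tested genes. The median difference was -0.16 over the members and -0.02 over all tested genes. The transcripts of all 3 are short, and once the dependence of the differences on principal transcript length and GC content was subtracted, limma called 0 members in this comparison and 1 had an unadjusted p under 0.05. That subtraction is called the length and GC correction below, and it was chosen after seeing the data. The planned trend removal, by total exon length in place of principal transcript length, left 1 member called, Sod1.

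In exposed brain with 6-OHG, the peroxiredoxins Prdx6, Prdx5, Prdx1 and Prdx3, the extracellular dismutase Sod3 and catalase were lower than in Con, and Sod2 was higher. These 7 calls were 70.0% of the members, against 30.7% of all tested genes. The 6 lower calls compare with 14.4% of tested genes called lower, and the 1 higher call with 16.3% called higher. The 6-OHG and Con libraries did not overlap for 5 members and for 28.1% of all tested genes. The median difference was -0.28 over the members and 0 over all tested genes. With the length and GC correction, the calls of Sod2, Sod3, Cat, Prdx1 and Prdx6 held and those of Prdx3 and Prdx5 ended.

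**Figure D2:**
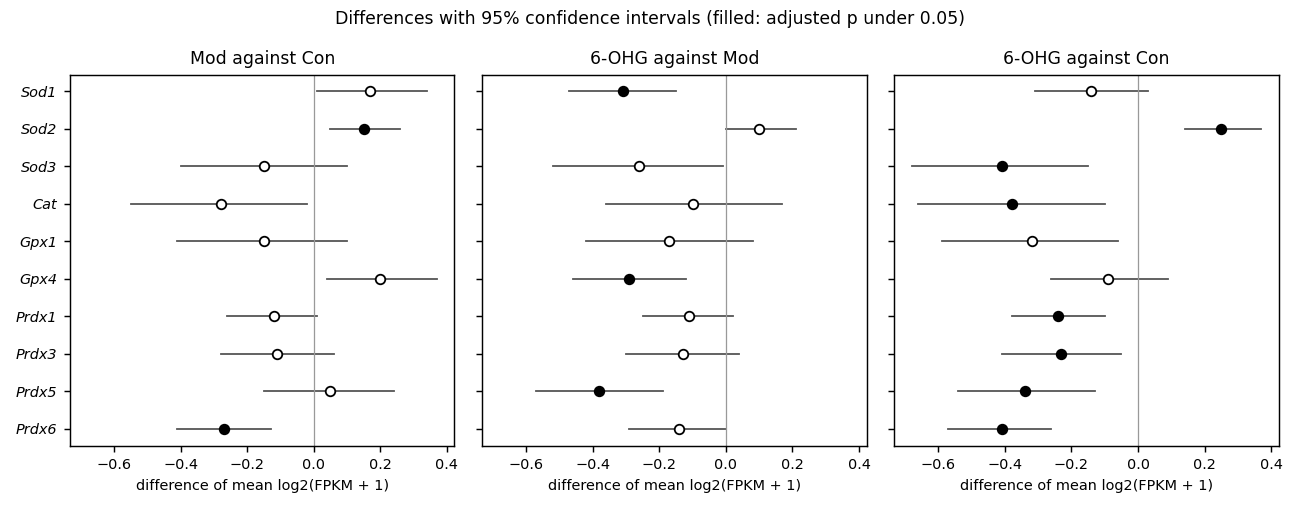
Difference of mean log2(FPKM + 1) (x axis) for each of the 10 enzymes (rows) in 3 panels, 1 per comparison, with 95% confidence intervals as lines and filled points where the limma adjusted p was under 0.05. Sod2 and Prdx6 are called in opposite directions in both comparisons with Con, and most points of 6-OHG against Con lie left of 0.

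Sod2, the manganese dismutase of the mitochondrial matrix (ENSMUSG00000006818, chromosome 17, 13006846 to 13040063), had 20.8, 22.4, 19.7 and 20.7 FPKM in the 6-OHG libraries. It had 19.6, 18.9, 18.8, 19.1 and 20.7 FPKM in the Mod libraries and 17.5, 16.8, 17.8 and 17.5 FPKM in the Con libraries. Every exposed library, with or without 6-OHG, lay above every Con library, while the 6-OHG and Mod libraries overlapped. Against Con, Mod was higher by 0.15 ± 0.05 (SE; limma adjusted p = 0.0391), and 6-OHG was higher by 0.25 ± 0.05 (limma adjusted p = 0.00295). The difference of 6-OHG from Mod was 0.10, with a 95% interval of 0 to 0.21, and was not called (limma adjusted p = 0.174). The call in Mod against Con was a narrow one: it ended in 10 of the 13 leave-one-out fits, with adjusted p between 0.051 and 0.102, and held in those without 6-OHG 1, 2 or 3. It also ended with equal sums (0.08, adjusted p = 0.407), whereas with the length and GC correction it was 0.20 (adjusted p = 0.00612).

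Sod1, the copper-zinc dismutase of the cytosol (ENSMUSG00000022982, chromosome 16, 90220754 to 90226329), had 24.4, 29.1, 24.8 and 26.6 FPKM in the 6-OHG libraries. It had 32.0, 30.6, 35.2, 31.1 and 34.9 FPKM in the Mod libraries and 28.1, 26.5, 28.2 and 33.1 FPKM in the Con libraries. The highest 6-OHG library was below the lowest Mod library, and the Con libraries overlapped both groups, with Con 4 inside the Mod range. Sod1 fell by 20.0% with 6-OHG against Mod (-0.31 ± 0.07, limma adjusted p = 0.0151). The difference of Mod from Con was 0.17 (adjusted p = 0.11), and without Con 4 it was 0.24 and called (adjusted p = 0.0274). Over the 28 alternative fits this difference ran from 0.1 to 0.24, with limma adjusted p up to 0.381, and was called in 3. The difference of 6-OHG from Con was -0.14 (adjusted p = 0.205). Equal sums ended the call of 6-OHG against Mod (-0.21, adjusted p = 0.0891), and with the length and GC correction the difference was near 0 (-0.01, adjusted p = 0.97). With the planned trend removal by total exon length, however, the Sod1 call held. Sod1 has 3970 exon bases in all against 641 in its principal transcript, so the 2 versions treat it differently.

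The balance of the mitochondrial to the cytosolic dismutase was looked at after these values were seen and is given as a description. The ratio of Sod2 to Sod1 FPKM lay between 0.770 and 0.854 in 6-OHG libraries, between 0.535 and 0.616 in Mod libraries and between 0.528 and 0.633 in Con libraries. Both FPKM levels are per length, and the transcripts differ much in length, 5861 bases for Sod2 and 641 bases for Sod1. The 6-OHG libraries stood above all the others in this ratio as deposited, and the Mod and Con libraries overlapped. The differences of 6-OHG from Mod were near 0 for both genes with the length and GC correction, at -0.04 for Sod2 and -0.01 for Sod1.

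Sod3, the secreted copper-zinc dismutase (ENSMUSG00000072941, chromosome 5, 52363791 to 52371418), had 1.44, 1.76, 2.76 and 1.70 FPKM in the 6-OHG libraries. It lay between 2.33 and 2.58 FPKM in the Mod libraries and had 2.63, 2.82, 2.36 and 3.61 FPKM in the Con libraries. The 6-OHG libraries 1, 2 and 4 were below all others, and 6-OHG 3 was inside the Con range. Sod3 fell by 32.9% in 6-OHG against Con (-0.41 ± 0.12, limma adjusted p = 0.0236), the largest percent change of any member in any comparison. That call ended without Con 4 (-0.32, adjusted p = 0.0631), without 6-OHG 1 (-0.33, adjusted p = 0.0714) and without 6-OHG 4 (-0.38, adjusted p = 0.0577). The difference of 6-OHG from Mod was -0.26 (adjusted p = 0.149) and became a call without 6-OHG 3 (-0.39, adjusted p = 0.0214). Sod3 is also the member with the lowest level, and so the least signal behind its values.

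Cat, the heme enzyme of the peroxisome (ENSMUSG00000027187, chromosome 2, 103453849 to 103485160), had 11.0, 15.9, 11.9 and 12.5 FPKM in the 6-OHG libraries. It had 15.2, 12.7, 13.7, 11.3 and 16.1 FPKM in the Mod libraries and 15.7, 15.8, 15.6 and 21.0 FPKM in the Con libraries. Con 1, 2 and 3 were close together and Con 4 stood well above them, and the 6-OHG and Mod libraries each reached into the Con range with 1 library. Cat fell by 24.6% in 6-OHG against Con (-0.38 ± 0.13, limma adjusted p = 0.0397). The call ended in 7 of the 13 fits that left out 1 library (Con 1, 2 or 4, Mod 3, and 6-OHG 1, 3 or 4), with adjusted p between 0.0517 and 0.109. The difference of Mod from Con was -0.28 (adjusted p = 0.113) and that of 6-OHG from Mod -0.10 (adjusted p = 0.639).

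Gpx4, which reduces hydroperoxides of membrane phospholipids and restrains ferroptosis (ENSMUSG00000075706, chromosome 10, 80047166 to 80056439), had 67.3, 79.1, 69.8 and 68.2 FPKM in the 6-OHG libraries. It had 90.4, 87.9, 88.2, 82.9 and 85.5 FPKM in the Mod libraries and 75.7, 78.5, 63.8 and 85.0 FPKM in the Con libraries. No 6-OHG library reached the lowest Mod library, while the Con libraries extended below and above the 6-OHG range and Con 4 alone fell inside the Mod range. Gpx4 fell by 18.3% in 6-OHG against Mod (-0.29 ± 0.08, limma adjusted p = 0.0246). This call ended without Mod 1, 2 or 3 or 6-OHG 1, 3 or 4, with adjusted p between 0.0507 and 0.0697, and with equal sums (-0.19, adjusted p = 0.113). Its difference with the length and GC correction was 0.02 (adjusted p = 0.888), of the opposite sign. The difference of Mod from Con was 0.20 (adjusted p = 0.0729), and without Con 4 it was 0.26 and called (adjusted p = 0.0254). Over the 28 alternative fits this difference ran from 0.12 to 0.26, with limma adjusted p up to 0.239, and was called in 4. A transcribed processed copy on the same chromosome, Gpx4-ps2, had 31.2 to 40.4 FPKM in 6-OHG, 36.8 to 52.6 FPKM in Mod and 34.7 to 45.2 FPKM in Con libraries. How reads shared by the gene and its copy were assigned is not given, so the Gpx4 values are uncertain.

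Gpx1, the glutathione peroxidase of cytosol and mitochondria (ENSMUSG00000063856, chromosome 9, 108338903 to 108340343), lay between 22.9 and 27.1 FPKM in 6-OHG, between 22.8 and 32.1 FPKM in Mod and between 26.0 and 38.0 FPKM in Con libraries. The groups overlapped in each comparison and Gpx1 was the only one of the 10 members called in none. Its difference of 6-OHG from Con was -0.32 ± 0.12 (limma adjusted p = 0.0619) and became a call without Con 3 (-0.41, adjusted p = 0.0275) or without Mod 5 (-0.32, adjusted p = 0.0422). Over the 28 alternative fits that difference ran from -0.41 to -0.11, with limma adjusted p up to 0.495. The difference of 6-OHG from Mod ran from -0.24 to 0.12 over these fits. The differences were -0.15 for Mod from Con (adjusted p = 0.366) and -0.17 for 6-OHG from Mod (adjusted p = 0.36).

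Prdx6, which reduces peroxides and lipid hydroperoxides with glutathione and is abundant in astrocytes (ENSMUSG00000026701, chromosome 1, 161240112 to 161251219), had 19.7, 20.6, 22.7 and 19.3 FPKM in the 6-OHG libraries. It had 22.9, 21.7, 23.1, 24.9 and 21.4 FPKM in the Mod libraries and 28.1, 30.0, 24.9 and 27.9 FPKM in the Con libraries. All 9 exposed libraries lay below the Con libraries, although Mod 4 and Con 3 were equal to the digits printed, and 6-OHG and Mod overlapped. Prdx6 fell by 25.8% in 6-OHG against Con (-0.41 ± 0.07, limma adjusted p = 0.00102) and fell by 17.7% in Mod against Con (-0.27 ± 0.07, limma adjusted p = 0.0115). The difference of 6-OHG from Mod was -0.14 (adjusted p = 0.166). The call in 6-OHG against Con held in all 28 alternative fits, at -0.46 to -0.35, though not with a minimum change of 0.5. That in Mod against Con held without each of the 13 libraries in turn. With the length and GC correction the differences from Con were -0.44 for 6-OHG (adjusted p = 0.000873) and -0.30 for Mod (adjusted p = 0.0082). The processed copy Prdx6-ps2 was listed at 0 in 12 libraries and at 0.0411 FPKM in Mod 3.

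Prdx5, found in mitochondria, peroxisomes and cytosol (ENSMUSG00000024953, chromosome 19, 6906697 to 6910106), had 45.3, 51.1, 42.3 and 42.0 FPKM in the 6-OHG libraries. It had 61.9, 57.4, 62.0, 49.6 and 65.1 FPKM in the Mod libraries and 51.3, 60.3, 54.6 and 62.9 FPKM in the Con libraries. The 6-OHG libraries lay below all Con libraries and below all Mod libraries but Mod 4, which 6-OHG 2 exceeded, and the Mod and Con libraries overlapped widely. Prdx5 fell by 23.7% in 6-OHG against Mod (-0.38 ± 0.09, limma adjusted p = 0.0139) and fell by 21.1% in 6-OHG against Con (-0.34 ± 0.09, limma adjusted p = 0.0176), and its difference of Mod from Con was 0.05 (adjusted p = 0.758). The call of 6-OHG against Mod held without each of the 13 libraries. With the length and GC correction both calls ended, at -0.12 against Mod (adjusted p = 0.407) and -0.14 against Con (adjusted p = 0.173). Prdx5 shares 409 exon bases with Trmt112 on the opposite strand, and the strand setting of the counting is not given. Trmt112 itself had 5.85 to 8.75 FPKM in 6-OHG, 7.08 to 11.5 FPKM in Mod and 6.10 to 9.64 FPKM in Con libraries.

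Prdx1, the thioredoxin-dependent peroxiredoxin of the cytosol (ENSMUSG00000028691, chromosome 4, 116685544 to 116700822), had 30.2, 32.5, 32.4 and 31.2 FPKM in the 6-OHG libraries. It had 34.4, 32.2, 36.1, 32.6 and 35.9 FPKM in the Mod libraries and 38.1, 34.5, 35.4 and 42.0 FPKM in the Con libraries. The 6-OHG libraries lay below all Con libraries, and the Mod libraries bridged both. Prdx1 fell by 15.8% in 6-OHG against Con (-0.24 ± 0.07, limma adjusted p = 0.0162). That difference was -0.27 with the length and GC correction (adjusted p = 0.00376), and quantile normalization ended the call (-0.13, adjusted p = 0.189). The difference of Mod from Con was -0.12 (adjusted p = 0.17) and that of 6-OHG from Mod -0.11 (adjusted p = 0.245).

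Prdx3, the mitochondrial peroxiredoxin of the same subclass as Prdx1 (ENSMUSG00000024997, chromosome 19, 60864051 to 60874556), lay between 23.7 and 25.3 FPKM in 6-OHG and between 24.6 and 28.9 FPKM in Mod libraries. Its Con libraries had 27.2, 26.4, 27.7 and 35.0 FPKM. The 6-OHG libraries were below all Con libraries, with Con 4 far above the other 3. The call in 6-OHG against Con (-0.23 ± 0.08, limma adjusted p = 0.0494) was at the edge: it ended in 12 of the 13 fits that left out 1 library, all but that without Con 2. Without Con 4 the difference was -0.14, and the adjusted p over these 12 fits reached 0.103. Equal sums (-0.20, adjusted p = 0.0842) and the length and GC correction (-0.18, adjusted p = 0.0508) also ended it.

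The members' transcripts range from 641 bases in Sod1 to 5861 in Sod2, and transcript length moved with the differences of all genes. In 6-OHG against Mod, 42.6% of 733 tested genes with a principal transcript under 1 kb were called lower and 0.546% higher, with a median of -0.30. Of 4002 genes with a transcript over 4 kb, 1.05% were called lower and 17.9% higher, with a median of 0.11. The same direction held in 6-OHG against Con, with 38.1% lower and 4.37% higher under 1 kb, against 9.05% lower and 23.6% higher over 4 kb. In Mod against Con the direction was the other way, with 5.46% lower and 14.1% higher under 1 kb, against 15% lower and 9.35% higher over 4 kb. Sod1 (641 bases) and Gpx4 (959 bases), called lower in 6-OHG against Mod, are in the shortest class, Prdx5 (1262 bases) is in that of 1 to 2 kb, where 18.4% of genes were called lower, and Sod2, called higher in 6-OHG against Con, is in the longest. Prdx6 (2387 bases), Prdx1 (2294 bases), Cat (2613 bases) and Sod3 (3738 bases) are in the class of 2 to 4 kb, where the median of all genes in 6-OHG against Con was 0.

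**Figure D3:**
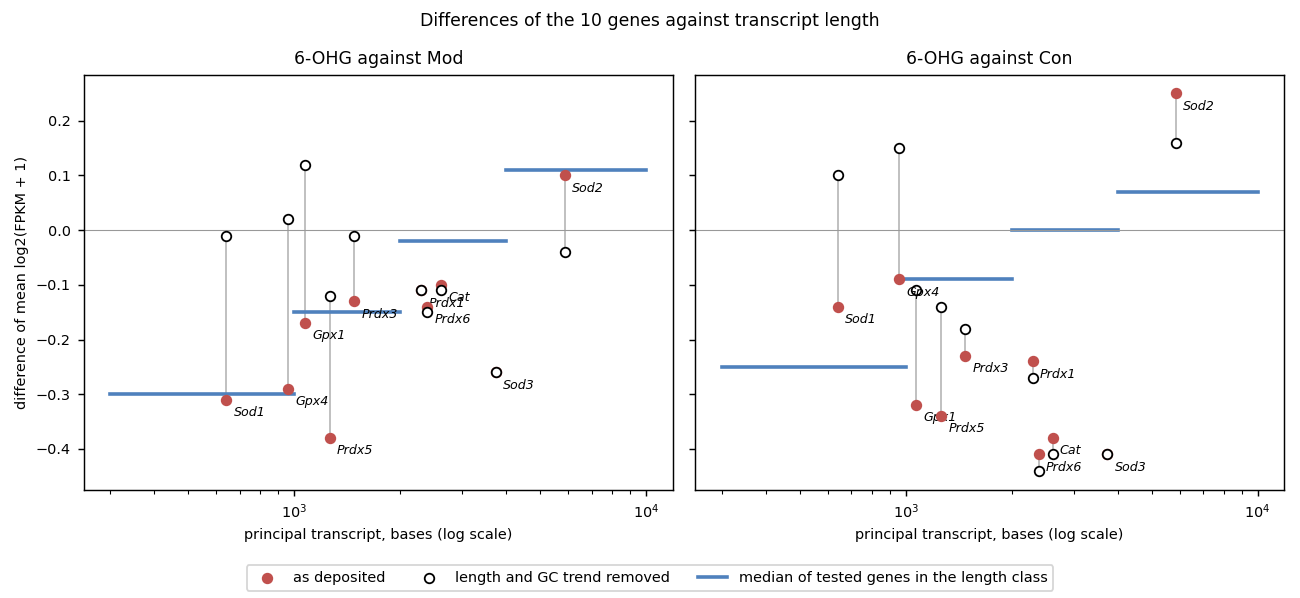
Difference of mean log2(FPKM + 1) (y axis) of the 10 enzymes against the length of the principal transcript (x axis, log scale) in 6-OHG against Mod and 6-OHG against Con, as deposited (red) and with the length and GC correction (open), with the median of all tested genes per length class (blue). Sod1 and Gpx4 move to -0.01 and 0.02 in 6-OHG against Mod, while Prdx6 stays at -0.44 in 6-OHG against Con.

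The surrounding pathway was described with 6 lists of 86 genes, of which 78 were tested. All counts of these lists stand beside the shares over all tested genes, and no list was tested as a set. In Mod against Con, 14.0% of all tested genes were called higher and 9.81% lower. These shares were 6.98% and 8.35% in 6-OHG against Mod, and 16.3% and 14.4% in 6-OHG against Con. Of 5 tested other peroxidases, 0 were higher and 1 was lower in Mod against Con; the same counts were 0 and 2 in 6-OHG against Mod and 0 and 3 in 6-OHG against Con. Prdx2, the abundant cytosolic peroxiredoxin of neurons and red cells, was lower in all 3 comparisons. It averaged 33.8 ± 1.83 FPKM in 6-OHG, 40.8 ± 1.72 FPKM in Mod and 48.7 ± 1.43 FPKM in Con libraries (SD, n = 4, 5 and 4). The differences were -0.25 for Mod from Con (limma adjusted p = 0.00415), -0.27 for 6-OHG from Mod (adjusted p = 0.0051) and -0.52 for 6-OHG from Con (adjusted p = 5.36e-05). With the length and GC correction, the difference of 6-OHG from Mod was -0.13 and no longer called (adjusted p = 0.102), and the other calls held. Gpx7, a peroxidase of the endoplasmic reticulum, was lower in 6-OHG against Mod (-0.40) and against Con (-0.35), and Gpx8, of the same compartment, against Con (-0.43). With that trend removed none of these 3 calls held.

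Among the 17 electron donors and repair enzymes, 4 were higher and 2 lower in Mod against Con, 1 higher and 4 lower in 6-OHG against Mod, and 4 higher and 5 lower in 6-OHG against Con. The 4 higher in Mod than in Con were Sesn1 (0.44), Sesn2 (0.37), both stress-induced sestrins, Gsr (0.30), which regenerates reduced glutathione, and Ccs (0.30), the chaperone that loads copper into Sod1. The 2 lower were the glutaredoxin Glrx3 (-0.28) and Nnt (-0.22), a mitochondrial source of NADPH. Gsr averaged 10.9 ± 0.888 FPKM in 6-OHG, 10.6 ± 0.956 FPKM in Mod and 8.43 ± 0.61 FPKM in Con libraries. Against Mod, 6-OHG libraries were lower in Ccs (-0.32), the thioredoxins Txn1 (-0.30) and Txn2 (-0.23) and Glrx3 (-0.25), and higher in Sesn3 (0.33). With the length and GC correction, none of these 5 calls held. Against Con, 6-OHG libraries were higher in Sesn1 (0.53), Sesn2 (0.52), Sesn3 (0.39) and Gsr (0.33), and lower in Glrx3 (-0.53), Txn2 (-0.37), Nnt (-0.33), Glrx5 (-0.33) and Txn1 (-0.25). The Txn1 call against Con ended with the length and GC correction (-0.14, adjusted p = 0.0948), as did that of Ccs in Mod against Con (0.22, adjusted p = 0.102). In fits without 1 library, the Mod against Con calls of Ccs ended in 9 of 13 and of Sesn2 in 5 of 13, with adjusted p up to 0.121 and 0.0752. That of Nnt ended without Con 3 or Con 4, with adjusted p up to 0.0577.

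Of the 11 genes of selenoprotein synthesis, which serve Gpx1 and Gpx4, 2 were higher and 0 lower in Mod against Con: Trnau1ap (0.30) and Sephs1 (0.22). In 6-OHG against Mod, Secisbp2l was higher (0.27), a call that ended with the length and GC correction (0.10). In 6-OHG against Con, Sephs1 (0.22) and Trnau1ap (0.20) were higher and Eefsec, the elongation factor for selenocysteine, was lower (-0.29). The Trnau1ap call in 6-OHG against Con ended in 12 of 13 fits without 1 library, with adjusted p up to 0.122. With the length and GC correction that difference was larger, at 0.37 (limma adjusted p = 0.000714).

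Of the 15 listed enzymes that produce superoxide or peroxide, 8 were tested. Ero1l, an oxidase of the endoplasmic reticulum that produces hydrogen peroxide, was higher than in Con both in Mod (0.31) and in 6-OHG (0.39), and Aox1, aldehyde oxidase, in 6-OHG (0.28). In fits without 1 library, the Ero1l call in Mod against Con ended in 6 of 13 and the Aox1 call in 7 of 13, and the length and GC correction ended the Aox1 call (0.23, adjusted p = 0.0767). None of the 8 was called lower in any comparison. In 6-OHG against Mod limma called 0 of the 8, and 1 had an unadjusted p under 0.05.

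Of the 22 peroxisome genes, which build the organelle that holds Cat, 1 was higher and 1 lower in Mod against Con; the same counts were 0 and 2 in 6-OHG against Mod and 3 and 3 in 6-OHG against Con. Pex6, an ATPase that recycles the import receptor of Cat, averaged 4.33 ± 0.662 FPKM in 6-OHG, 6.68 ± 0.692 FPKM in Mod and 10.4 ± 0.7 FPKM in Con libraries. Its differences were -0.57 in Mod against Con (limma adjusted p = 0.000724), -0.53 in 6-OHG against Mod (adjusted p = 0.00277) and -1.11 in 6-OHG against Con (adjusted p = 9.78e-06). These 3 calls held with the length and GC correction. Pex26, its membrane anchor, was higher than in Con in Mod (0.27) and in 6-OHG (0.32), the call in Mod ending without Con 3 (adjusted p = 0.0709). Scp2, which carries lipids into peroxisomal oxidation, was lower in 6-OHG against Mod (-0.18). In 6-OHG against Con the remaining calls were Pex3 (0.25) and Pex19 (0.18), which insert membrane proteins, both higher, and the thiolase Acaa1a (-0.38) and the import receptor Pex5 (-0.26), both lower. The calls of Acaa1a (-0.25, adjusted p = 0.0539) and Pex5 (-0.22, adjusted p = 0.056) ended with the length and GC correction. The calls of Scp2, Pex3, Pex5 and Pex19 ended in 9, 7, 4 and 4 of 13 fits without 1 library.

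Of the 15 regulators of antioxidant genes, 3 were higher and 2 lower in Mod against Con, 1 higher and 0 lower in 6-OHG against Mod, and 6 higher and 2 lower in 6-OHG against Con. Maff, a small Maf protein that pairs with NRF2 on antioxidant response elements, averaged 2.50 ± 0.75 FPKM in 6-OHG, 3.40 ± 0.579 FPKM in Mod and 0.41 ± 0.168 FPKM in Con libraries. Its differences from Con were 1.64 for Mod (limma adjusted p = 7.73e-06) and 1.30 for 6-OHG (limma adjusted p = 7.89e-05). Maff was below 1 FPKM in Con and passed the filter on low values only through the exposed libraries, so its direction was partly set by the filter. Mafk, a related protein, was higher in Mod (0.53) and 6-OHG (0.45) than in Con, while Mafg (-0.45 in both), another small Maf, and Nfe2l1 (-0.27 in both), a relative of NRF2, were lower. Keap1, which marks NRF2 for degradation, was higher in Mod against Con (0.25). Nfe2l2, the gene of NRF2, averaged 4.81 ± 0.59 FPKM in 6-OHG, 4.16 ± 0.309 FPKM in Mod and 3.45 ± 0.301 FPKM in Con libraries. It was called in 6-OHG against Con (0.38, limma adjusted p = 0.00424) and not in Mod against Con (0.21, adjusted p = 0.0627). Ppargc1a, a coactivator of mitochondrial genes, was higher in 6-OHG against Mod (0.48, adjusted p = 0.0156) and against Con (0.38, adjusted p = 0.031). With the length and GC correction, both Ppargc1a calls ended, at 0.32 and 0.27. The repressor Bach1 (0.32) and the deacetylase Sirt1 (0.33) were higher in 6-OHG against Con.

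Some of these pathway calls rested on single libraries or on the scaling. In 6-OHG against Mod, leaving out 1 library ended the calls of Ccs in 8 of 13 fits, of Glrx3 and Secisbp2l in 4 each, and of Gpx7 without 6-OHG 4 (adjusted p = 0.0587). In 6-OHG against Con it ended those of Glrx5 in 8, Gpx8 in 6 and Ppargc1a in 4 of 13 fits. In the same comparison the Gpx7 call ended without Con 2, 6-OHG 3 or 6-OHG 4 (adjusted p up to 0.0748), that of Txn1 without 6-OHG 1 (adjusted p = 0.0537) and that of Mafk without Con 1 (adjusted p = 0.0631). In Mod against Con, equal sums ended the calls of Gsr, Sesn2, Ccs, Sephs1, Ero1l, Pex26 and Keap1. They ended those of Prdx2, Glrx3, Ccs, Txn1, Txn2 and Scp2 in 6-OHG against Mod, and those of Gpx8, Glrx5, Pex3, Pex5 and Pex19 in 6-OHG against Con. No named pathway gene that had been called changed sign in any alternative.

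**Figure D4:**
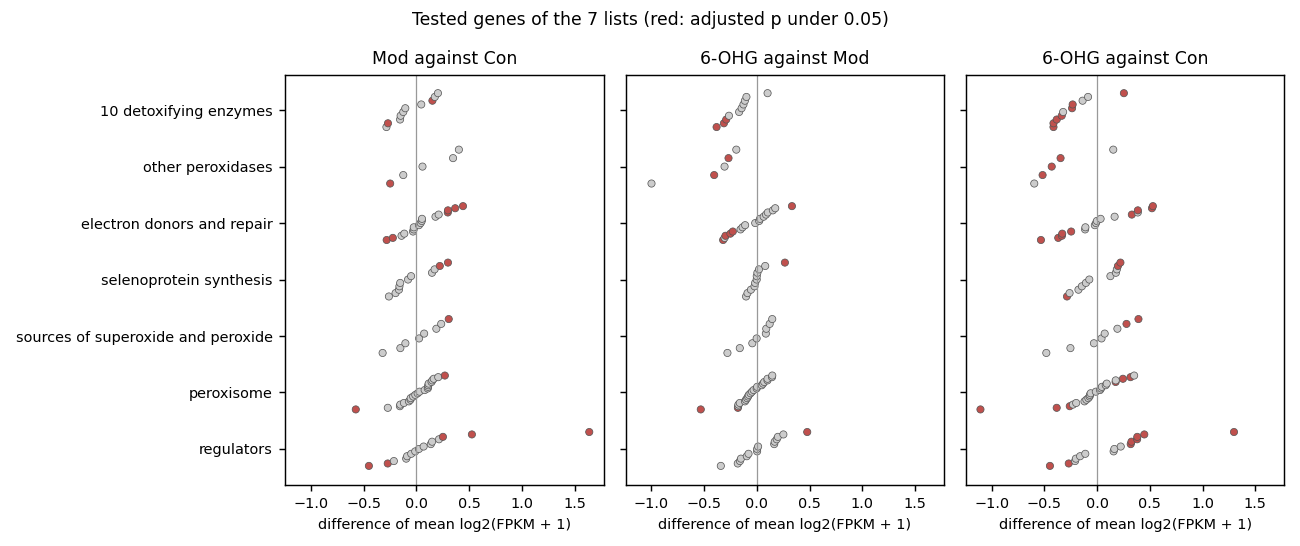
Difference of mean log2(FPKM + 1) (x axis) for every tested gene of the 10 enzymes and of the 6 pathway lists (rows), with red points at a limma adjusted p under 0.05 and 1 panel per comparison. In 6-OHG against Con the called enzymes and other peroxidases lie mostly left of 0, while 6 of its called regulators lie right of it. Maff, at 1.30, passed the filter on low values only through the exposed libraries.

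Markers of cells in which some members are abundant were read beside these values, and their part in the results was not tested. Of all tested genes, 23.8% were called in Mod against Con, 15.3% in 6-OHG against Mod and 30.7% in 6-OHG against Con. The 6 astrocyte markers, cells rich in Prdx6, summed to 227 to 300 FPKM in 6-OHG, 213 to 244 FPKM in Mod and 229 to 295 FPKM in Con libraries, with 2 of 6 lower in each comparison with Con and none at 0. The 5 erythroid markers summed to 40.9 to 176 FPKM in 6-OHG, 109 to 520 FPKM in Mod and 108 to 357 FPKM in Con libraries. In 6-OHG against Mod 1 of 5 was lower, Hba-a2 (limma adjusted p = 0.0442). In 6-OHG against Con it was a different 1, Hbb-bt (limma adjusted p = 0.0345), so no erythroid marker was called in both. Red cells are rich in Cat, Prdx2 and Gpx1. The 9 liver markers, from a tissue with much Cat, summed to 0.6 to 0.82 FPKM in 6-OHG, 0.408 to 32.2 FPKM in Mod and 34.8 to 49.6 FPKM in Con libraries. All 4 that were tested were lower in both comparisons with Con. These 4 averaged 4.14 to 17.4 FPKM in Con and 0 to 0.208 FPKM in 6-OHG libraries. They passed the filter on low values largely through the Con libraries, so their direction was partly set by the filter. Fabp1 was at 0 in all 6-OHG libraries. Mod 3 alone made the highest Mod value. The liver markers were high in all Con libraries and low in the exposed libraries other than Mod 3. Their part in the differences of any member from Con therefore cannot be told apart from the exposure. The 5 microglial markers summed to 19.7 to 37 FPKM, 28.8 to 36.4 FPKM and 35.4 to 45.8 FPKM, and the 5 endothelial markers to 37.3 to 48.8 FPKM, 44.5 to 49.7 FPKM and 25.5 to 33.1 FPKM, in the 6-OHG, Mod and Con groups. Of the microglial markers, 1 of 5 was lower in Mod against Con and 3 of 5 in 6-OHG against Con. Among the endothelial markers, 4 of 5 were higher and 1, Tek, was lower in each comparison with Con. In 6-OHG against Mod, 1 endothelial marker was lower. The 5 oligodendrocyte markers summed to 489 to 893 FPKM in 6-OHG, 588 to 1380 FPKM in Mod and 911 to 1210 FPKM in Con libraries, and the 5 choroid plexus markers to 3.56 to 360 FPKM in 6-OHG, 47.2 to 252 FPKM in Mod and 280 to 695 FPKM in Con libraries. An oligodendrocyte marker, Mag, was lower in 6-OHG against Con, and the 2 choroid plexus markers tested were called in no comparison.

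For each of the 9 members called at least once, the tested genes with the most similar pattern over the 13 libraries were those with the smallest root mean square difference of mean-centred log2(FPKM + 1). The median of that difference over all genes was between 0.204 and 0.295, depending on the member. For Sod2 they were Gm15387 (0.04), Polr3k (0.042) and Rsrc2 (0.043), and for Sod1 they were Cox5b (0.046), Psmb1 (0.047) and Ndufv2 (0.05). Around Gpx4 lay Snx17 (0.058), Dus3l (0.058) and Surf1 (0.063), and around Prdx5 lay Ndufb8 (0.075), Uqcc2 (0.077) and Cox7b (0.077). Genes near Prdx6 included Dmac1 (0.067) and Afap1l2 (0.071), and Prdx1 was nearest to Fez1 (0.05), Lonp2 (0.051) and Pofut2 (0.053). Cat was nearest to Hsd17b12 (0.07), Fnbp1 (0.071) and Ttll5 (0.074), and genes near Sod3 included Jagn1 (0.113) and Hdac5 (0.12). Prdx3 was nearest to Fra10ac1 (0.054), Dis3l (0.061) and Prdx1 (0.065), the one case in which another member was among the 3. The libraries share their scaling and their groups, so these values describe likeness and nothing more.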

How the data were processed

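The 10 genes, the pathway lists and the marker lists were chosen with earlier results of these data known. The authors deposited 1 table of FPKM, with a column for each library. The submitters' processing notes name edgeR, DESeq2, featureCounts 1.5.0-p3, StringTie 2.1.6, HISAT2 2.2.1, FastQC and cutadapt 1.9 and the builds GRCm38 and mm10, with no role or order for any tool. Which annotation release and strand setting were used, and whether values were filtered, is not given in the sources used here. Read totals are not given either, and only 4.92% to 6.94% of low values of genes with 1 transcript lay within 0.01 of a whole multiple of the commonest step, so reads were not recovered and no counting interval is given.

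Gene IDs were matched to symbols for 37499 of 37636, and 137 were not matched. Values entered as log2(FPKM + 1). Genes averaging 1 FPKM or more, 13905 in number, were tested with limma 3.58.1 in R 4.3.3 (trended empirical Bayes moderation, all 13 libraries in 1 fit, Benjamini-Hochberg adjustment over all tested genes). A call is an adjusted p under 0.05. The fit was checked on simulated data. The named genes are all 10 members, the called genes of each pathway list (up to 6 in each direction) and the 3 nearest patterns of each called member. Intervals are 95%. Transcript lengths, GC content and coding sequence came from GENCODE M21 on GRCm38, and promoters from RefSeq on GRCm38.p6. Alternatives were another pseudocount, other filters, equal sums, median-of-ratios and quantile scaling, removal of length and GC trends, a replicate block, fits of 2 groups, robust moderation, sample weights, a minimum change and leaving out each library. Equal sums without mitochondrially encoded genes, the trend by principal transcript and leaving out Con 4 and 6-OHG 2 together were chosen after seeing the data. The length and GC correction of the report is the one by principal transcript, a spline with 5 degrees of freedom in length and in GC content per library, over the 12035 genes that have one. Of the nearest patterns, 2 genes are not reported here.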

Additional observations from a re-analysis of the deposited data

Results flagged for a closer look

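Over the 30 sets of values of a member within a group, 2 had a library set far apart from the rest of its group by Dixon's test, and chance gives about 1 in 20. Cat in Con 4 was 21.0 FPKM, with the other Con libraries between 15.6 and 15.8 FPKM. Prdx3 in Con 4 was 35.0 FPKM, with the other Con libraries between 26.4 and 27.7 FPKM.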

How the results depend on the processing

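Prdx6 in 6-OHG against Con held its call in all 28 alternative fits, but its difference did not reach the minimum change of 0.5. For called members, 1 value changed sign: Gpx4 in 6-OHG against Mod, at 0.02 with the length and GC correction. In Mod against Con, the 3304 genes called became 2061 at a mean of at least 5 FPKM, 788 with a change of at least 0.5, and 2382 to 3653 without 1 library. The 2 members called there became 4 with the exon-length and GC trend removed, with sample weights, or without Con 4 and 6-OHG 2 together. They became 1 with equal sums over genes not encoded in mitochondria, 0 with a change of at least 0.5, and 1 to 3 without 1 library. The 17 pathway genes became 3 with a change of at least 0.5 and 14 to 19 without 1 library. The members' median of -0.12 was -0.14 to -0.04 without 1 library and -0.19 with equal sums. In 6-OHG against Mod, the 2131 genes became 976 with the exon-length trend removed, 431 with the length and GC correction, 231 with a change of at least 0.5, and 1357 to 2345 without 1 library. The 3 members became 1 with equal sums or the exon-length trend removed, 0 with the length and GC correction or a change of at least 0.5, and 2 to 3 without 1 library. The 11 pathway genes became 6 with equal sums or the exon-length trend removed, 3 with the length and GC correction, 1 with a change of at least 0.5, and 7 to 15 without 1 library. The members' median of -0.16 became -0.06 with equal sums, -0.08 with either the length and GC correction or equal sums without mitochondrial genes, and -0.20 to -0.13 without 1 library. In 6-OHG against Con, the 4268 genes became 2663 at a mean of at least 5 FPKM, 1133 with a change of at least 0.5, and 3427 to 4238 without 1 library. The 7 members became 4 with no filter on low values or with only the 2 groups in the fit, 3 with quantile normalization, 0 with a change of at least 0.5, and 4 to 7 without 1 library. The 31 pathway genes became 19 at a mean of at least 5 FPKM, 6 with a change of at least 0.5, and 23 to 32 without 1 library. The members' median of -0.28 became -0.16 with the length and GC correction and -0.31 to -0.23 without 1 library. The cause was not tested.

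Replicate numbers gave no clear sign of pairing: 3 of 12 same-numbered pairs correlated above 0.1, and 2 of 12 best matches had the same number. With 4 or 5 libraries per group, this check cannot exclude a batch shared by number. With the replicate block, 2039 genes, 0 members and 14 pathway genes were called in Mod against Con, with 3 members at an unadjusted p under 0.05. That fit called 846 genes, 0 members and 3 pathway genes in 6-OHG against Mod, and 4 members in 6-OHG against Con. With the block and the exon-length trend removed, 2133 genes and 0 members were called in Mod against Con. The combined fit called 64 genes, 0 members and 0 pathway genes in 6-OHG against Mod, and 2 members and 20 pathway genes in 6-OHG against Con.

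The number of reads behind each FPKM is not known, which limits what can be said of the low Sod3 values.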
